A study of Mus musculus with 15 samples.

Results

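Pde6c and 9 other genes of the cone photoreceptor, namely Pde6h, Opn1sw, Opn1mw, Gnat2, Gngt2, Cnga3, Cngb3, Arr3 and Thrb, were followed across posterior eyecups of Tmem135 mutant mice. They are 10 of the 55421 genes counted. Pde6c was chosen by its measured counts, which were lower in FUN025/FUN025 than in FUN025/+ eyecups. The others were chosen by their known place in the cone pathway, with earlier results of these data known. The contrast of FUN025/FUN025 with FUN025/+ is therefore described without a p-value for any gene, and Pde6c is given no p-value in any comparison. Only the number of all genes called in that contrast is given, in the closing section on processing. The question was whether Pde6c moved with the other cone genes or alone.

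Cones are the photoreceptors of daylight and colour vision. Light on a cone opsin activates the G protein transducin, which releases the cone phosphodiesterase from its inhibitory subunit. The phosphodiesterase then removes cyclic GMP, the cyclic nucleotide channels close, and arrestin quenches the opsin. In the retina the tips of the outer segments lie against the pigment epithelium.

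RNA was sequenced from 15 mice aged 2.5 months and of both sexes, with 1 library per mouse: 4 WT, 6 heterozygous and 5 homozygous for FUN025, a mutant allele of Tmem135, a gene linked to retinal aging. These genotypes are called WT, FUN025/+ and FUN025/FUN025. The neural retina had been removed, so the tissue held the pigment epithelium, choroid and sclera with whatever photoreceptor material stayed attached. All mice were on the C57BL/6J background, and the allele was carried by the whole animal and not by 1 cell type.

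WT libraries held 18094977 to 20029919 counts, and all were deeper than the FUN025/+ (10903183 to 13456349) and FUN025/FUN025 (11053535 to 15038383) libraries. No batch is labelled, so depth or a batch holding WT mice alone cannot be told apart from genotype in the comparisons with WT. The labelled tissue showed its markers, with Rpe65, the isomerase of the visual cycle, at 1486 to 2616 CPM (counts relative to the scaled total of the library) in every mouse. All 13 genes of a rod list were also detected. WT replicate 2 stood apart: the rod genes without Slc24a1 summed to 2332 CPM there, against a WT median of 594 CPM, 97.5 to 676 CPM in FUN025/+ and 103 to 427 CPM in FUN025/FUN025 eyecups. Slc24a1, the rod exchanger, was set aside because it stayed at 316 to 463 CPM in every mouse. In bulk tissue, fewer cells of a type and less RNA per cell cannot be told apart. Both mutant genotypes were set against the same 4 WT mice, so the comparisons with WT are not independent of each other.

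Pde6c encodes the catalytic subunit of the cone phosphodiesterase and lies on chromosome 19 from 38132781 to 38183958 of GRCm38, on the plus strand (ENSMUSG00000024992). In WT eyecups it stood at 12.1, 13.7, 8.44 and 10.5 CPM in replicates 1 to 4. In FUN025/+ eyecups the lowest value was 6.93, the median 9.92 and the highest 11.8 CPM. In FUN025/FUN025 eyecups replicates 1 to 5 gave 4.14, 4.46, 5.30, 5.10 and 6.53 CPM. All 5 FUN025/FUN025 mice lay below every WT and every FUN025/+ mouse, while WT and FUN025/+ values overlapped. The group means were 11.2 ± 2.24 CPM (SD, n = 4), 9.47 ± 1.74 CPM (SD, n = 6) and 5.11 ± 0.925 CPM (SD, n = 5) in that order. Behind them were 169 to 254 counts per WT library, 84 to 157 per FUN025/+ library and 58 to 72 per FUN025/FUN025 library. The log2 fold change of Pde6c, from an edgeR fit over all mice, was −0.90 (SE 0.158) in FUN025/FUN025 relative to FUN025/+, the contrast that chose it. It was −1.13 (SE 0.168) relative to WT, and −0.23 (SE 0.155) for FUN025/+ relative to WT. Over all genes tested, 0.495% were lower in FUN025/FUN025 than in FUN025/+ eyecups without overlap, and 7.50% were so against WT, which nothing is read from here because the rule used these mice. With the rod genes as a covariate the log2 fold changes of Pde6c in FUN025/FUN025 eyecups were −0.87 relative to FUN025/+ and −0.95 relative to WT. This covariate included Slc24a1. No exon base of Pde6c overlaps another gene, and 0% of its 31-base stretches occur in the transcripts of other genes.

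**Figure D1:**
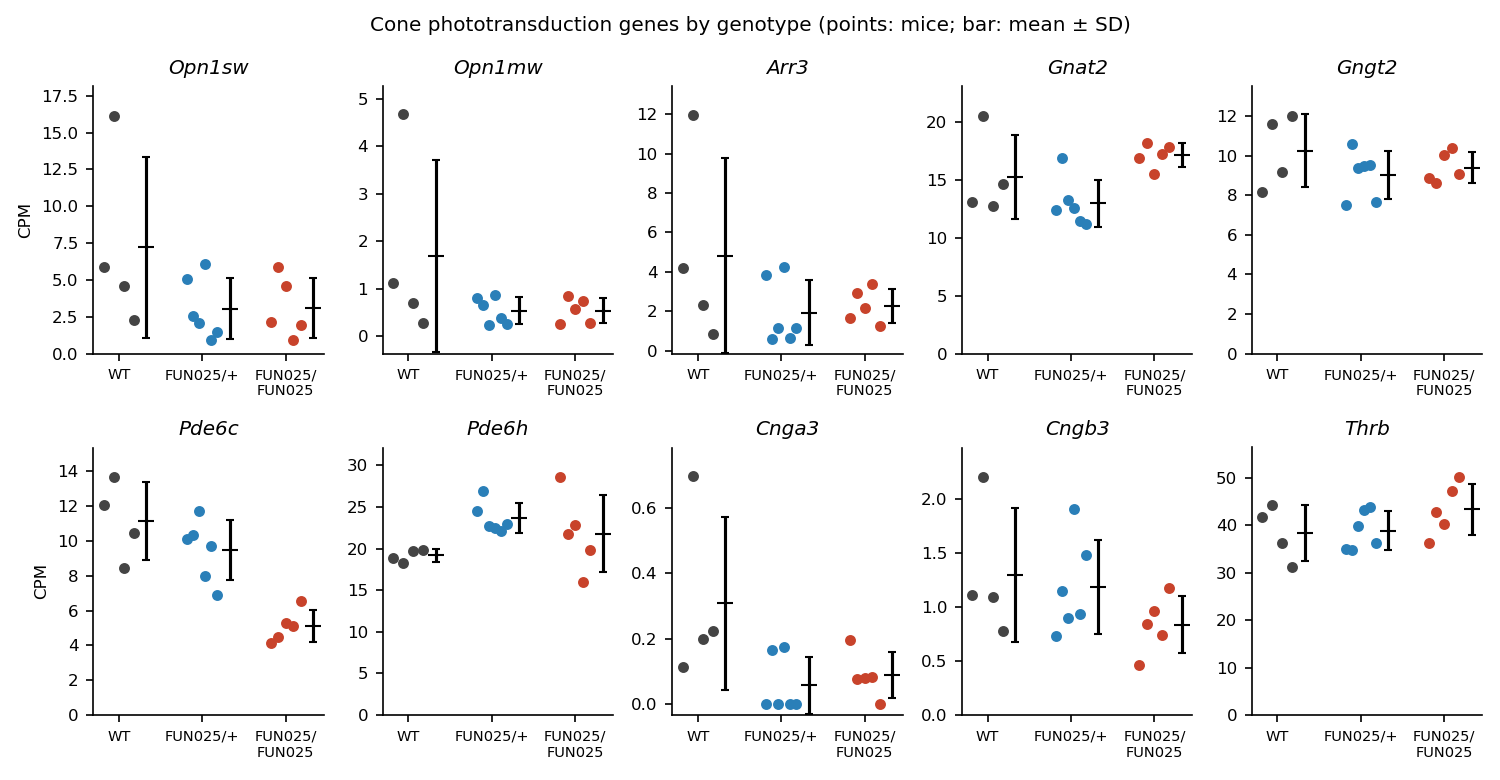
CPM of the 10 cone genes in each mouse, with the mean ± SD of each genotype as a bar beside the points (WT n = 4, FUN025/+ n = 6, FUN025/FUN025 n = 5); each panel has its own axis. The 5 FUN025/FUN025 points of Pde6c, at 4.14 to 6.53 CPM, lie below all others, and 1 WT mouse is far above the rest for Opn1sw, Opn1mw, Arr3 and Cnga3.

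Pde6h, which encodes the inhibitory subunit of the same enzyme, did not share this pattern. Its levels were 18.9, 18.2, 19.7 and 19.9 CPM in the WT mice, and its lowest, median and highest values in FUN025/+ eyecups were 22.1, 22.9 and 27.0 CPM. The FUN025/FUN025 mice gave 28.6, 21.7, 22.8, 16.0 and 19.9 CPM. FUN025/+ values therefore all lay above WT, and FUN025/FUN025 values spanned both groups. The log2 fold change was 0.30 (SE 0.111) in FUN025/+ relative to WT, with an adjusted p of 0.0775 by edgeR's quasi-likelihood test. It was 0.19 (SE 0.115, adjusted p = 0.297) in FUN025/FUN025 relative to WT and −0.11 (SE 0.105) relative to FUN025/+. Fitted on WT and FUN025/+ mice alone, the first difference had an adjusted p of 0.0142. The estimates for the catalytic and inhibitory subunits thus had opposite signs against WT in both mutant genotypes. Those of Pde6c in FUN025/+ and of Pde6h in FUN025/FUN025 lay within 2 standard errors of 0. Between the mutant genotypes both subunits had negative estimates. The annotated span of Pde6h begins 30.691 kb before its RefSeq start, and 1.73% of its exon bases overlap Arhgdib on the other strand. Arhgdib itself rose by 0.26 on the log2 scale in both mutant genotypes (edgeR adjusted p = 0.0381 and 0.0409), and how the counting used strand is not given in the sources used here. Its part in the Pde6h values was not tested.

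Transducin was represented by Gnat2, the cone alpha subunit, and Gngt2, the cone gamma subunit. Gnat2 stood at 13.1, 20.6, 12.7 and 14.6 CPM in WT eyecups, between 11.2 and 16.9 CPM in FUN025/+ eyecups (median 12.5), and at 16.9, 18.2, 15.5, 17.3 and 17.9 CPM in FUN025/FUN025 eyecups. The FUN025/FUN025 mice sat at the upper end of the range and overlapped both other genotypes, each through 1 mouse, FUN025/+ replicate 2 and WT replicate 2. Its log2 fold change relative to WT was −0.23 (SE 0.129, adjusted p = 0.249) in FUN025/+ and 0.17 (SE 0.134, adjusted p = 0.437) in FUN025/FUN025 by the edgeR test. Relative to FUN025/+ it was 0.40 (SE 0.123), of opposite sign to Pde6c. Without WT replicate 2 the FUN025/FUN025 value relative to WT was 0.36 (adjusted p = 0.0512). Gngt2 moved little: WT mice gave 8.18, 11.6, 9.19 and 12.0 CPM, FUN025/+ mice 7.49 to 10.6 CPM (median 9.41), and FUN025/FUN025 mice 8.87, 8.62, 10.04, 10.4 and 9.07 CPM. All 3 genotypes overlapped, with log2 fold changes of −0.18 (SE 0.123) and −0.12 (SE 0.127) relative to WT and 0.060 (SE 0.118) between the mutant genotypes. Of the exon bases of Gngt2, 12.5% overlap Abi3 on the other strand. Relative to WT, Abi3 was at −0.31 in FUN025/+ and −0.27 in FUN025/FUN025 (edgeR adjusted p = 0.0646 and 0.123). Its part in the Gngt2 values was not tested.

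The cone channel is built from Cnga3, its main subunit, and Cngb3, its modulatory subunit, and both had few counts. Cnga3 had 2, 13, 4 and 4 counts in the WT libraries, 0 to 2 in the FUN025/+ libraries and 0 to 3 in the FUN025/FUN025 libraries. These values lie around the floor of 3 counts, so no difference in Cnga3 was detectable at this depth, and it did not pass the low-count filter. Cngb3 gave 1.11, 2.21, 1.10 and 0.778 CPM in WT eyecups and 0.735 to 1.91 CPM (median 1.04) in FUN025/+ eyecups. The FUN025/FUN025 mice gave 0.460, 0.847, 0.964, 0.740 and 1.18 CPM, from 7 to 13 counts each, and overlapped both other genotypes. Cngb3 was the member nearest to Pde6c in FUN025/FUN025 relative to FUN025/+, at −0.51 (SE 0.336), and was at −0.65 (SE 0.348, edgeR adjusted p = 0.230) relative to WT, so that both 0 and the values of Pde6c lay within 2 standard errors. Without WT replicate 2 the value relative to WT was −0.27, and that of FUN025/+ turned from −0.14 to 0.24.

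Thrb, the thyroid hormone receptor that directs the identity of green-sensitive cones and is also used by many other tissues, was the most counted member. It stood at 41.8, 44.4, 36.2 and 31.2 CPM in WT mice, 34.9 to 43.9 CPM (median 38.2) in FUN025/+ mice and 36.4, 42.8, 40.4, 47.2 and 50.2 CPM in FUN025/FUN025 mice. The 3 genotypes overlapped throughout. The log2 fold changes were 0.018 (SE 0.105, adjusted p = 0.936) in FUN025/+ and 0.17 (SE 0.109, adjusted p = 0.314) in FUN025/FUN025 relative to WT by edgeR, and 0.16 (SE 0.0997) between the mutant genotypes.

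The opsins and arrestin varied widely between mice of the same genotype. Opn1sw, the short-wavelength opsin, gave 5.84, 16.1, 4.60 and 2.28 CPM in WT mice. The FUN025/+ mice ran from 0.941 through a median of 2.32 to 6.08 CPM, and the FUN025/FUN025 mice gave 2.17, 5.85, 4.58, 0.904 and 1.91 CPM. WT replicate 2 was the highest of all 15 mice, and the other WT mice lay within the mutant ranges. Opn1mw, the medium-wavelength opsin, was also highest in WT replicate 2, with 1.11, 4.68, 0.699 and 0.278 CPM in WT mice. It ran from 0.225 to 0.869 CPM (median 0.516) in FUN025/+ mice, while FUN025/FUN025 mice gave 0.263, 0.847, 0.562, 0.740 and 0.272 CPM. WT replicate 1 also lay above every mutant mouse, and the other WT mice lay within the mutant ranges. Outside WT replicate 2, no mouse had more than 20 counts of Opn1mw. Arr3, the cone arrestin, gave 4.17, 11.9, 2.30 and 0.834 CPM in WT mice, 0.574 to 4.26 CPM (median 1.14) in FUN025/+ mice and 1.64, 2.93, 2.17, 3.37 and 1.27 CPM in FUN025/FUN025 mice. Again WT replicate 2 was the highest and the rest overlapped, but FUN025/FUN025 replicate 4, the lowest of all mice for Opn1sw, was the highest of its genotype for Arr3. Of the exon bases of Opn1sw, 15.5% overlap Calu on the other strand, a gene at 335 ± 26.0 CPM (SD, n = 4) in WT mice whose part in the Opn1sw values was not tested.

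The highest mouse exceeded the lowest 17.9-fold for Opn1sw, 20.8-fold for Opn1mw and 20.8-fold for Arr3. The same span was 4.80-fold for Cngb3 and 3.30-fold for Pde6c, and for Pde6h, Gnat2, Gngt2 and Thrb it was 1.60 to 1.83-fold. Relative to WT, the log2 fold changes in FUN025/+ were −1.24 (SE 0.620) for Opn1sw, −1.66 (SE 0.641) for Opn1mw and −1.30 (SE 0.684) for Arr3. In FUN025/FUN025 eyecups they were −1.22 (SE 0.650), −1.65 (SE 0.672) and −1.08 (SE 0.708). By edgeR their adjusted p-values were 0.209, 0.0992 and 0.231 in FUN025/+ eyecups, and 0.240, 0.119 and 0.348 in FUN025/FUN025 eyecups. These differences rest mainly on WT replicate 2, without which they were −0.47, −0.38 and −0.32 in FUN025/+ and −0.45, −0.37 and −0.090 in FUN025/FUN025 eyecups. Without WT replicate 4 instead, Opn1mw passed the threshold in both, at a log2 fold change of −2.0 in FUN025/+ (adjusted p = 0.0392) and −1.99 in FUN025/FUN025 (adjusted p = 0.0467). Between the mutant genotypes, where Pde6c was at −0.90, the values were 0.018 (SE 0.638) for Opn1sw, 0.010 (SE 0.746) for Opn1mw and 0.23 (SE 0.707) for Arr3.

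The 250 bases before the RefSeq start of these genes are shown on GRCm38, since they are the members that varied together, with that of Gnat2, which did not. A core site of the photoreceptor factor CRX, TAATCC, and a nuclear receptor motif, AGGTCA, were searched on both strands, and matches are in capitals. The first occurs in 6.25% and the second in 14.0% of the 32851 RefSeq promoter windows of the same length.
Opn1sw, chr6:29380514-29380763, minus strand: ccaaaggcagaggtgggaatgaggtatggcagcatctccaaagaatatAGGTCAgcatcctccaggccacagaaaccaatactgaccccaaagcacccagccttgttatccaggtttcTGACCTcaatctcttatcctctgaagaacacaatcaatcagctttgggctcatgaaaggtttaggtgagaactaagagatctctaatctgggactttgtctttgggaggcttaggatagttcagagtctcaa
Opn1mw, chrX:74127216-74127465, plus strand: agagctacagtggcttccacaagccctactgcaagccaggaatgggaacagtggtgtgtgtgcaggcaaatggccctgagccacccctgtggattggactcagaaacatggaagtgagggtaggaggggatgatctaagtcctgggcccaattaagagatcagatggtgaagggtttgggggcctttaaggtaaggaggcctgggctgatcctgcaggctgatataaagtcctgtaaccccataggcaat
Arr3, chrX:100605247-100605496, plus strand: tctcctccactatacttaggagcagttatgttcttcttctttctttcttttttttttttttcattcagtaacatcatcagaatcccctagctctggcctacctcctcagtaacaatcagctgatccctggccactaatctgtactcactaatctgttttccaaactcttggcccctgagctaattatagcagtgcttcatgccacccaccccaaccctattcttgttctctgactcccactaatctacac
Gnat2, chr3:108092816-108093065, plus strand: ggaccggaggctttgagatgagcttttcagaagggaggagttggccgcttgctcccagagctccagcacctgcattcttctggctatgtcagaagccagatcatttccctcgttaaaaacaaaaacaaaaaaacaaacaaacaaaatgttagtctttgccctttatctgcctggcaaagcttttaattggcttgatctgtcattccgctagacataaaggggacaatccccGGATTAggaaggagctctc
The Opn1sw window held AGGTCA 202 bases before the start and its reverse complement TGACCT 132 bases before it. Gnat2 held 1 CRX core, read as GGATTA, 19 bases before its start. In Opn1mw and Arr3 neither set of letters was present in the window. Of the 10 members, 7 had such windows, 9 in all, and of the others only the first of 2 Thrb windows held either set, TAATCC once and AGGTCA once. Windows of Pde6c, Cngb3 and Gngt2 were not analysed here.

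The 3 genes followed the amount of rod RNA in each library. The rod sum of these correlations left out Slc24a1, a choice made after its values were seen. Over 15 mice, log2 CPM of Opn1sw correlated with log2 summed CPM of the rod genes without Slc24a1 with Pearson's r = 0.89 (permutation p = 2e-05, 100000 resamples, two-sided) and Spearman's rho = 0.85 (permutation p = 0.00014). For Opn1mw r was 0.88 (permutation p = 8e-05) and rho 0.83 (permutation p = 0.00022). For Arr3 r was 0.86 (permutation p = 0.00017) and rho 0.79 (permutation p = 0.00062). Leaving out WT replicates 1 and 2, the mice farthest from the median on the rod axis, r stayed at 0.81, 0.75 and 0.73. With genotype means removed it was 0.86, 0.85 and 0.88. For none of the remaining tested members was the permutation p under 0.05: r was −0.38 for Pde6h, 0.23 for Gnat2, 0.41 for Cngb3, 0.15 for Gngt2 and 0.065 for Thrb, with permutation p-values of 0.126 to 0.820, and rho lay between −0.43 and 0.15. These 8 p-values are not adjusted. For Pde6c, described only, r was 0.39 and rho 0.40, and with genotype means removed r was 0.23. With the summed rod genes as a covariate, the log2 fold changes relative to WT turned to 0.035, 0.12 and 0.24 in FUN025/+ and to 0.26, 0.39 and 0.83 in FUN025/FUN025 eyecups for Opn1sw, Opn1mw and Arr3, none of them past the threshold (edgeR adjusted p = 0.258 to 0.961). The rod genes had median log2 fold changes of −1.77 and −1.82 relative to WT over the 13 genes, of which 12 were negative in each mutant genotype, Slc24a1 was not, and 0 passed the threshold by edgeR, where 6.61% and 7.02% of all genes were called lower. At an unadjusted p under 0.05 there were 11 and 12, and DESeq2 called 6 and 3, all lower, against 7.55% and 7.99% of all genes. Without WT replicate 2 the medians were −0.78 and −0.79, with 0 and 1 genes at an unadjusted p under 0.05. The covariate included Slc24a1. Beyond it, the part of the rod genes in the opsin and arrestin values was not tested.

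**Figure D2:**
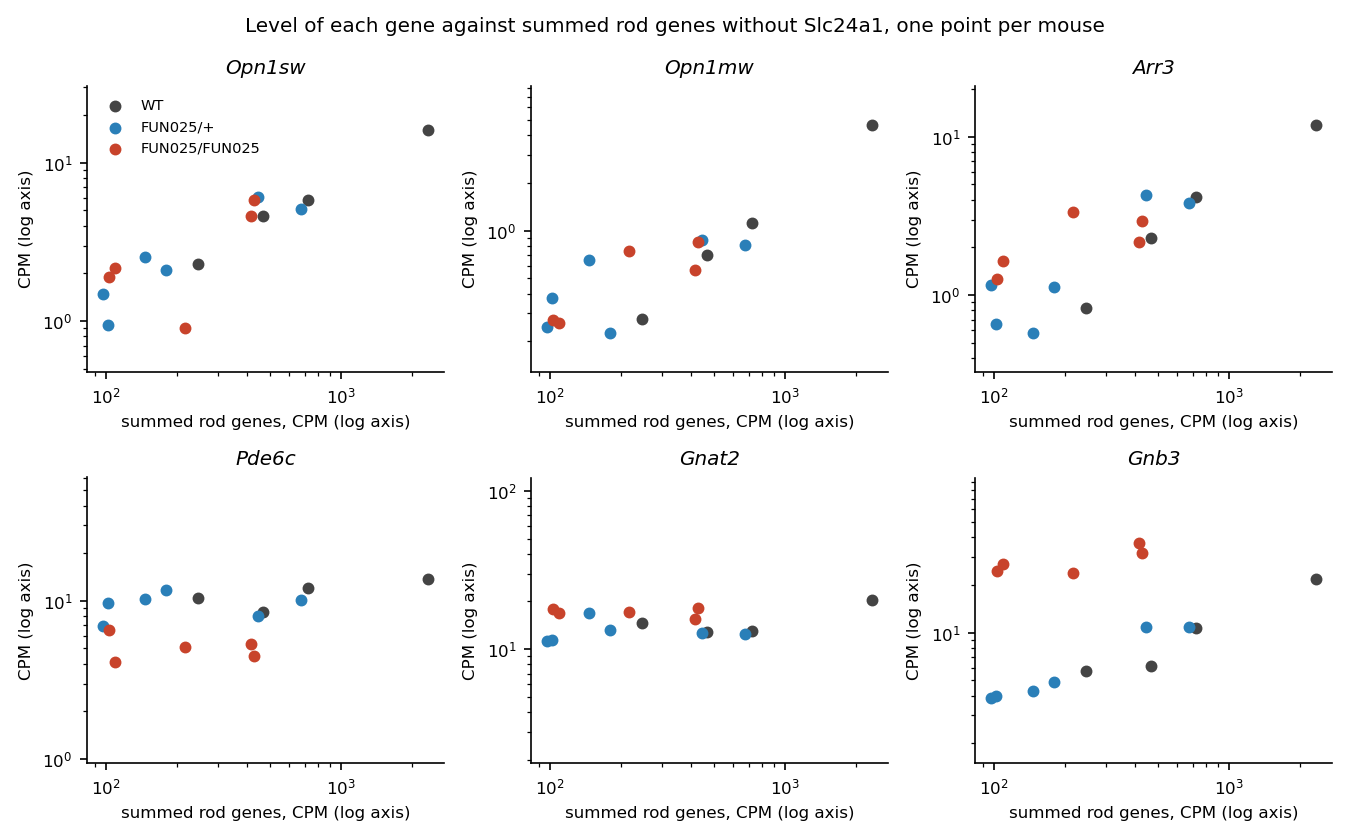
CPM of 6 genes against the summed CPM of the rod genes without Slc24a1, 1 point per mouse, both axes logarithmic and each vertical axis spanning the same fold range. Opn1sw, Opn1mw and Arr3 climb with the rod genes in all 3 genotypes, Pde6c and Gnat2 stay nearly level, and for Gnb3 the 5 FUN025/FUN025 mice at 23.7 to 36.8 CPM form a separate line above the others.

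The other 8 members that passed the filter were set beside Pde6c between the mutant genotypes, the contrast by which Pde6c was chosen, so that its low value there is a description and supports nothing. Relative to FUN025/+, the median of the others in FUN025/FUN025 was 0.039 on the log2 scale, from −0.51 for Cngb3 to 0.40 for Gnat2, with 6 positive and 2 negative, against a median of −0.0040 over all genes tested. Pde6c lay 0.94 below that median on the log2 scale (a difference of −0.94), and between −1.13 and −0.83 over the fits that left out 1 mouse. For Cngb3, Opn1sw, Opn1mw and Arr3 the value of Pde6c, −0.90, lay within 2 standard errors, and for Pde6h, Gnat2, Gngt2 and Thrb it did not. None of the 8 separated the mutant genotypes without overlap, where 1.12% of all genes did. In FUN025/FUN025 relative to WT the median of the 8 was −0.39, and Pde6c differed from it by −0.75. In FUN025/+ relative to WT the median was −0.21 and Pde6c differed from it by −0.025.

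Of the 8 other members, 0 had an adjusted p under 0.05 by edgeR in FUN025/+ relative to WT, where 13.7% of all genes tested did, and 0 of 8 in FUN025/FUN025 relative to WT, where 14.0% did. At an unadjusted p under 0.05 there were 2 (Pde6h and Opn1mw) and 1 (Opn1mw), and DESeq2 also called 0 in each, against 15.7% and 16.0% of all genes. Without WT replicate 4 edgeR called 7.48% and 7.93% of all genes and 1 of the 8 (Opn1mw) in each comparison. The groups did not overlap for 1 of the 8 in FUN025/+ against WT (Pde6h, higher) and for 0 in FUN025/FUN025 against WT, where the background shares are 10.9% (5.75% higher) and 14.8%. With standard errors of 0.62 to 0.71 for the opsins and Arr3 against WT, a 2-fold change of those genes lies within 2 standard errors of 0.

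**Figure D3:**
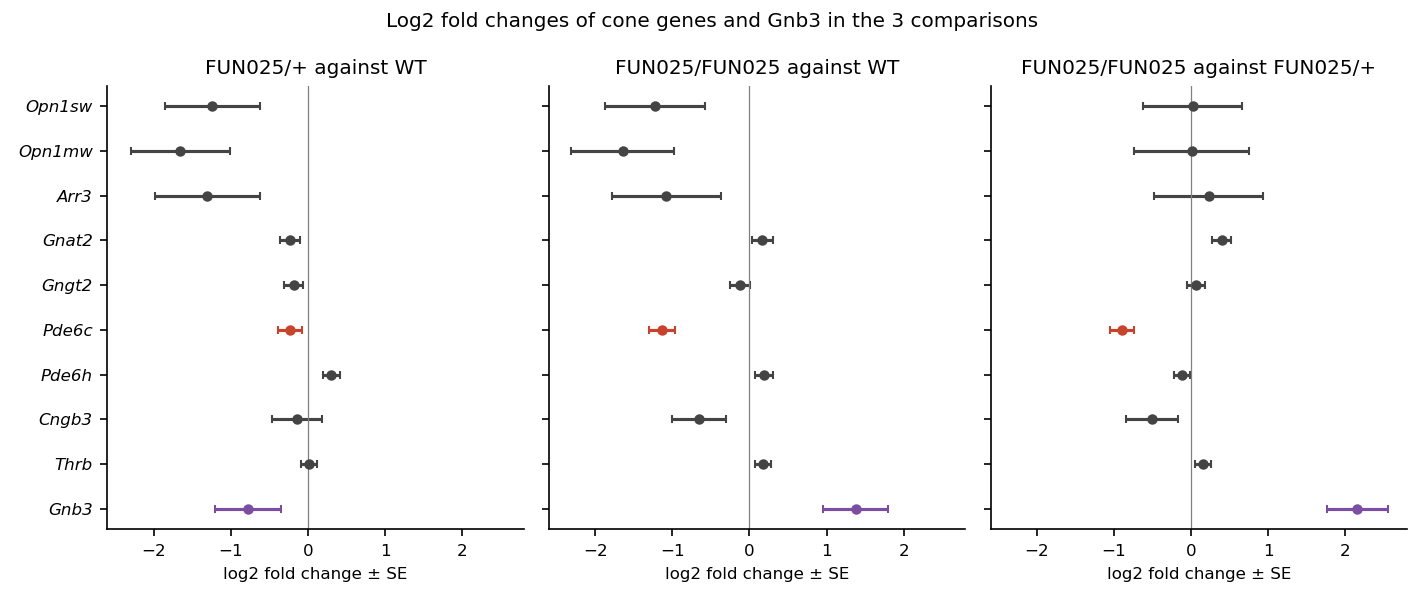
Log2 fold change with its standard error (bars) of the 9 tested cone genes and of Gnb3 in the 3 genotype comparisons. In FUN025/FUN025 against FUN025/+, Pde6c at −0.90 lies below the other members, which run from −0.51 to 0.40, and Gnb3 lies above them at 2.16.

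Within each library, Pde6c is also given as the log2 ratio of its counts to the summed counts of the other members, which reuses the counts that chose it and is no further support. This ratio was −3.14 ± 0.20 (SD, n = 4) in WT, −3.29 ± 0.28 (SD, n = 6) in FUN025/+ and −4.29 ± 0.24 (SD, n = 5) in FUN025/FUN025 eyecups. The FUN025/FUN025 mice ran from −4.53 to −3.96 and did not overlap the FUN025/+ mice, from −3.66 to −2.93, or the WT mice, from −3.36 to −2.97. Against the opsins and Arr3 alone the ratio spread too widely to separate the genotypes, with 0.16 ± 1.18 (SD, n = 4), 1.06 ± 1.06 (SD, n = 6) and −0.12 ± 0.75 (SD, n = 5). Across the 15 mice Pde6c and the summed other cone genes had r = 0.037 and rho = −0.30, without WT replicate 2 r was −0.48, and with genotype means removed r was 0.47, so that the sign depended on the mice and on the genotype means. No p-value is given, as the sum is over the members.

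On a scale per length, as CPM per kilobase of exon (RPKM), the WT levels were ordered Gngt2 5.45 ± 0.985, Thrb 5.19 ± 0.795, Gnat2 5.09 ± 1.21, Pde6c 3.76 ± 0.753, Opn1sw 2.82 ± 2.40, Pde6h 2.45 ± 0.0963, Arr3 2.04 ± 2.101, Opn1mw 1.08 ± 1.29, Cngb3 0.276 ± 0.133 and Cnga3 0.0779 ± 0.0670 RPKM (SD, n = 4 each). Neighbours in this order differed by less than the larger of their SDs, except Gnat2 and Pde6c and, at the bottom, Cngb3 and Cnga3. The opsins, which cones make in great amounts, had lower WT means than Gnat2, Gngt2 and Pde6c, though Opn1sw differed from Pde6c by less than its own SD. In FUN025/FUN025 eyecups Pde6c was at 1.72 ± 0.311 RPKM (SD, n = 5), below Pde6h at 2.78 ± 0.584 RPKM. The length is that of all annotated exons together. For Pde6h it is 7846 bases, in an annotation that begins 30.691 kb before its RefSeq start, so its place in this order depends on that annotation. In CPM, Pde6h was above Pde6c in WT eyecups too, at 19.2 against 11.2 CPM.

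Summed without Pde6c and Thrb, the cone members came to a log2 ratio of −4.22 ± 0.62 (SD, n = 4) to the rod genes in WT, −3.64 ± 0.33 (SD, n = 6) in FUN025/+ and −3.43 ± 0.39 (SD, n = 5) in FUN025/FUN025 eyecups. The rod genes of this ratio included Slc24a1, with group means of 352, 397 and 356 CPM in rod sums averaging 1294, 672 and 610 CPM. By these means it was most of the rod sum in both mutant genotypes but not in WT. The opsins and Arr3 over the rod genes without Slc24a1, chosen after seeing the data, gave −6.08 ± 0.12, −5.53 ± 0.38 and −5.28 ± 0.44. On the first measure the ranges of the genotypes overlapped. On the second the FUN025/FUN025 mice, from −5.83 to −4.75, all lay above the WT mice, from −6.19 to −5.94, while the FUN025/+ mice, from −6.12 to −5.08, overlapped both.

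Of the 7 cone genes listed beside the members, 6 passed the filter, and 1 of them changed. Gnb3, the beta subunit of cone transducin, which some bipolar cells also use, lies on chromosome 6 from 124834240 to 124840275 on the minus strand (ENSMUSG00000023439). It gave 10.7, 21.8, 6.15 and 5.73 CPM in WT mice and 3.87, 4.56 and 10.9 CPM as the lowest, median and highest of the FUN025/+ mice. The FUN025/FUN025 mice gave 27.1, 31.9, 36.8, 23.7 and 24.6 CPM, all above every other mouse. Gnb3 thus lay in the opposite direction to Pde6c in the same mice, with a log2 fold change of 1.38 (SE 0.424, edgeR adjusted p = 0.0481) relative to WT and 2.16 (SE 0.396), described only, relative to FUN025/+. Over all genes, 7.03% rose by this test in FUN025/FUN025 relative to WT, 7.27% lay higher without overlap there, and 0.627% did so relative to FUN025/+. The call was lost in 15 of 23 alternative fits, with adjusted p up to 0.127, while the direction held in all 23. Those that lost it include leaving out any FUN025/FUN025 mouse, WT replicate 1, 3 or 4, or FUN025/+ replicate 2, 3, 5 or 6. Without WT replicate 2 it was 1.95 (adjusted p = 0.00747), and with the rod covariate 2.43 (adjusted p = 6.15e-06). With genotype means removed, Gnb3 correlated with the rod genes without Slc24a1 with r = 0.91 over 15 mice, against 0.32 with the means kept.

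The other tested genes of this list, Ccdc136, Kcne2, Rxrg, Slc24a2 and Cd59a, did not pass the threshold in either comparison with WT by edgeR or DESeq2, and 1, Cd59a in FUN025/+, had an unadjusted p under 0.05. Rxrg, a retinoid receptor of cones, stood at 5.69 ± 0.865 CPM (SD, n = 4) in WT and 4.52 ± 0.664 CPM (SD, n = 5) in FUN025/FUN025 mice, which differ by −0.33 (SE 0.161) on the log2 scale. Sall3, a factor of cone development, had 0 to 6 counts per library.

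Genes that rods and cones share gave 0 calls of 16 tested in FUN025/+ and 2 in FUN025/FUN025 relative to WT by edgeR, both lower, where 6.61% and 7.02% of all genes were called lower. At an unadjusted p under 0.05 there were 9 in each, and DESeq2 called 3 and 4, all lower, where it called 7.55% and 7.99% of all genes lower. The 2 called by edgeR were Rom1, an outer segment disc protein, at −0.38 (SE 0.0998, adjusted p = 0.0184), and Kcnv2, a potassium channel subunit of both photoreceptors, at −1.18 (SE 0.358, adjusted p = 0.0450). Kcnv2 ran from 10.7 to 41.7 CPM in WT and from 6.99 to 11.2 CPM in FUN025/FUN025 mice. Its call was lost in 16 of 23 alternative fits, and without WT replicate 2 it was at −0.53 (adjusted p = 0.0883). Rom1 lost its call in 3 of 23, and without that mouse was at −0.24 (edgeR adjusted p = 0.0479). It ran from 81.7 to 152 CPM over all mice, a 1.87-fold span, and did not spread as the opsins did. Crx, the photoreceptor transcription factor, was at 5.45 to 46.5 CPM in WT, 2.06 to 12.0 CPM in FUN025/+ and 1.81 to 10.3 CPM in FUN025/FUN025 mice, spreading as the opsins did. The medians of the 16 genes were −1.07 and −1.17 relative to WT and −0.071 between the mutant genotypes, the contrast in which Pde6c was low. Without WT replicate 2 the medians relative to WT were −0.38 and −0.54, with 1 and 2 genes at an unadjusted p under 0.05 by edgeR.

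Markers of other cells in the tissue also moved with genotype. Of 5 choroid endothelial genes, 2 (Cdh5 and Plvap) were lower in FUN025/+ and 4 (Pecam1, Cdh5, Plvap and Emcn) in FUN025/FUN025 relative to WT, where 6.61% and 7.02% of all genes were called lower by edgeR, with sums of 756 to 887 CPM in WT, 577 to 811 CPM in FUN025/+ and 520 to 656 CPM in FUN025/FUN025 mice. DESeq2 called 2 and 5 of them, all lower, against 7.55% and 7.99% of all genes called lower by that tool. Of 5 skeletal muscle genes, all with negative estimates, 1 (Acta1) was lower in both by edgeR and 2 (Acta1 and Tnnt3) by DESeq2, and 3 and 2 had an unadjusted p under 0.05. None of the 8 pigment epithelium genes and none of the 4 melanocyte genes passed the threshold by edgeR (at an unadjusted p under 0.05, 0 and 1 of the first list and 1 and 1 of the second). DESeq2 called 0 of the first list and 1 of the second, Tyr, which was higher in FUN025/+ eyecups, where DESeq2 called 8.17% of all genes higher. The macrophage list (5 tested) and the Muller glia list (4 tested) had 0 calls by either tool and 0 at an unadjusted p under 0.05. Bipolar genes, of which 3 of 5 were tested, summed to 7.94 to 29.2 CPM in WT, 3.22 to 11.6 CPM in FUN025/+ and 4.72 to 7.31 CPM in FUN025/FUN025 mice. By edgeR and DESeq2 0 of them were called, and 2 and 3 had an unadjusted p under 0.05. Of the amacrine and ganglion list, 4 of 7 genes were tested and 1, Rbpms, which other tissues also use, was lower in both, by edgeR at −0.27 (adjusted p = 0.00325) in FUN025/+ and −0.23 (adjusted p = 0.0128) in FUN025/FUN025 eyecups. Their part in the Pde6c and Gnb3 values was not tested.

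None of the other members was among the 5 genes most like Pde6c by level across mice. So few members among 18978 genes would rarely be, so nothing is read from this. Of 18978 genes ranked by Pearson's r of log2 CPM with Pde6c over 15 mice, the first 5 were Cdhr1 (r = 0.88), Slc6a13 (0.88), Olfm1 (0.88), St3gal1 (0.87) and Hhatl (0.87). Cdhr1 is a cadherin of photoreceptor outer segments, Slc6a13 a GABA transporter, Olfm1 a secreted olfactomedin, St3gal1 a sialyltransferase and Hhatl a relative of hedgehog acyltransferase. All 5 were lower in FUN025/FUN025 than in FUN025/+ eyecups, which the choice by likeness to Pde6c over the 3 genotypes largely fixes and which is no finding. WT mice had 160 ± 14.4 CPM of Cdhr1 (SD, n = 4), FUN025/+ mice 138 ± 22.5 CPM (SD, n = 6) and FUN025/FUN025 mice 88.7 ± 13.1 CPM (SD, n = 5), and the log2 fold change between the mutant genotypes was −0.63 (SE 0.119). Among members the nearest was Cngb3 at rank 1609 (r = 0.46), followed by Opn1mw at rank 3382 and Opn1sw at rank 4065. Gnat2 was at rank 14715 (r = −0.28) and Pde6h at rank 12763 (r = −0.16). These ranks rest in part on the genotype means that chose Pde6c, so nothing is read from them.

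With genotype means removed, so that only differences between mice of a genotype remained, the 5 genes most like Pde6c were 4930473H19Rik (r = 0.89), Nlk (0.84), Gm32591 (0.83), R3hdm2 (0.83) and Lonp2 (0.83). The order of the members changed, with Gnat2 at rank 745 (r = 0.51) and Thrb at rank 1182 (r = 0.45). Ranked by Spearman's rho instead, 3 of the first 5 and 2 of the second 5 remained.

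The genes beside Pde6c on chromosome 19 were examined in the same contrasts. Within 500 kb of Pde6c, 11 genes were tested, and their log2 fold changes in FUN025/FUN025 relative to FUN025/+ ran from −0.36 for Cep55 to 0.17 for Cyp26c1, with a median of −0.089. The value of Cep55, at a mean of 0.682 CPM, had an SE of 0.455, so that −0.90, the value of Pde6c, lay within 2 standard errors of it. The nearest on each side, Rbp4 and Fra10ac1, were at −0.15 (SE 0.215) and −0.19 (SE 0.0861). Relative to WT the 11 ran from −0.41 to 0.44 in FUN025/FUN025 eyecups, where Myof, a membrane repair protein, rose by 0.20 (edgeR adjusted p = 0.0412). In FUN025/+ eyecups Lgi1, a secreted neuronal protein, rose by 0.22 (adjusted p = 0.0300). That is 1 of 11 in each, where 7.03% and 7.09% of all genes were called higher.

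**Figure D4:**
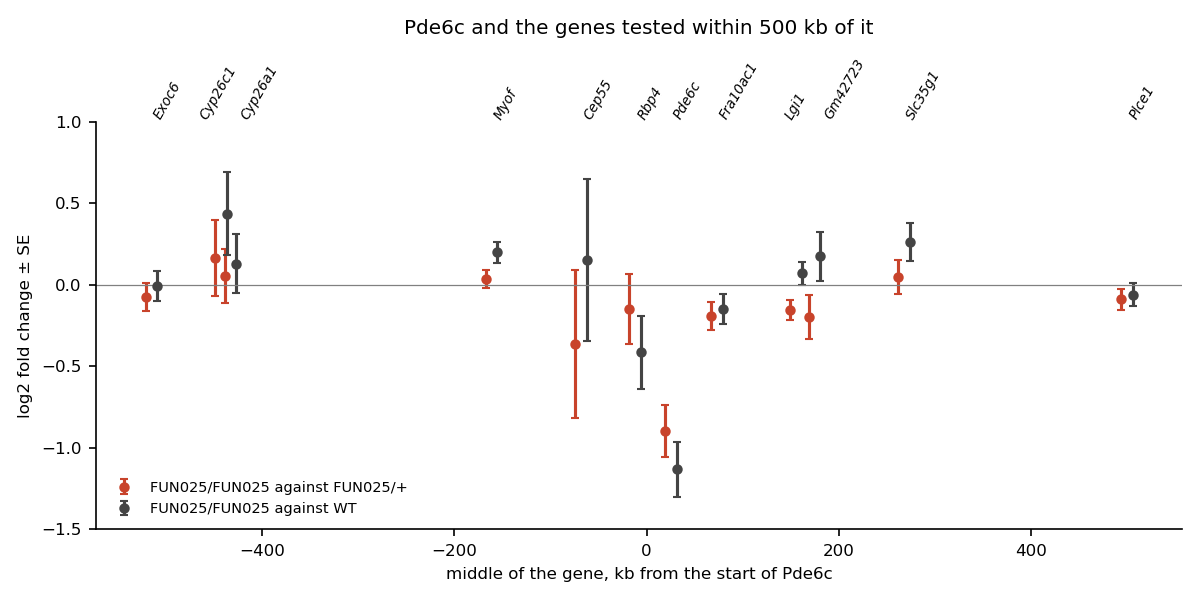
Log2 fold change with its standard error (bars) of Pde6c and the 11 tested genes within 500 kb, placed by the distance of the middle of each gene from the start of Pde6c in kb; the points of the 2 comparisons are set slightly apart. Pde6c, at −0.90 and −1.13, lies below its neighbours, which run from −0.41 to 0.44.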

How the data were processed

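Poly(A) RNA of posterior eyecups was prepared with the NEBNext Ultra kit and read as paired ends. The authors deposited whole-number counts per Ensembl gene for each library, without normalization. The submitters' processing notes name FastQC 0.11.8, Trimmomatic 0.39, HISAT2 2.1.0, SAMtools, featureCounts 2.0.0 and GRCm38, and the strand setting of the counting is not given in the sources used here. Symbols and positions came from GENCODE M21 (55240 of 55421 genes) and promoters from RefSeq GRCm38.p6. Genes in the lowest 15% by variance were dropped, as the study did, and filterByExpr then left 18979 genes. One edgeR 4.0.16 quasi-likelihood fit with TMM scaling took in all mice, with Benjamini-Hochberg adjustment over all genes and a threshold of 0.05; it was tested on simulated data. Rises, falls and calls refer to this threshold. CPM used TMM-scaled totals, and correlations log2 CPM with a prior count of 2. The floor of 3 counts covers counting error only. Groups came from the sample titles. Named genes are the members, the 5 genes most like Pde6c by each measure, its neighbours within 500 kb, and in each marker list up to 4 genes called against WT or most abundant; Kcne2, Slc24a2, Sall3 and Crx were named after their values were seen. The members and lists were chosen with earlier results of these data known. Alternatives were DESeq2 1.42.0, other scaling and filters, covariates, pairwise fits, the replicate block and leaving out each mouse; those with the rod list without Slc24a1 or the opsins and Arr3 alone were chosen after seeing the data. R 4.3.3, limma 3.58.1, Python 3.11.15, numpy 2.4.6, pandas 2.3.3, scipy 1.17.1 and matplotlib 3.10.9 were used.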

Additional observations from a re-analysis of the deposited data

Results flagged for a closer look

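Of 48 sets of values, each a gene, a list sum or a ratio in a genotype of 4 to 6 mice, 1 held a mouse far from the others. Chance alone marks about 1 in 20. Gnat2 was at 16.9 CPM in FUN025/+ replicate 2, with the nearest FUN025/+ mouse at 13.2 CPM, so that the gap took up most of the range of that genotype. This is the mouse through which the FUN025/+ and FUN025/FUN025 ranges of Gnat2 overlapped. WT replicate 2, though the highest mouse for the opsins, Arr3 and the summed rod genes, was not marked by this rule.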

How the results depend on the processing

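Over 23 alternative fits Pde6c stayed lower in FUN025/FUN025 eyecups, at −0.999 to −0.82 relative to FUN025/+ and −1.24 to −0.95 relative to WT, and its difference from the median of the other members stayed negative, at −1.13 to −0.83 with single mice left out. The count of other members called rose to 1 in FUN025/+ with only 2 genotypes compared. It was 0 to 1 in each comparison with single mice left out, through Pde6h without FUN025/FUN025 replicate 1 (adjusted p = 0.0276) or 4 (0.0321) and Opn1mw without WT replicate 4. With the rod list as a covariate the FUN025/+ values turned to 0.035 for Opn1sw, 0.12 for Opn1mw, 0.30 for Cngb3, 0.24 for Arr3 and 0.071 for Gnb3, and the FUN025/FUN025 values to 0.26, 0.39 and 0.83 for Opn1sw, Opn1mw and Arr3. Without Slc24a1 in that list they were 0.20, 0.17, 0.26, 0.37 and 0.12, and 0.27, 0.23 and 0.84. Cngb3 in FUN025/+ turned to 0.24 without WT replicate 2 and ran from −0.32 to 0.24 with single mice left out. Thrb in FUN025/+, near 0, ran from −0.063 to 0.10 with single mice left out. Replicate numbers did not pair the mice: of 4, 4 and 5 same-numbered pairs, 0, 0 and 1 had a correlation of deviations over 0.1. With the replicate block, 0 other members were called, Pde6c was at −0.98 relative to FUN025/+, Thrb in FUN025/+ turned to −0.013 and Gnb3 lost its call (adjusted p = 0.0808); over all genes 2010, 2137 and 80 were called. The log2 cone to rod ratio for WT, FUN025/+ and FUN025/FUN025 was −3.33, −2.69 and −2.51 with all 10 members, −3.57, −3.12 and −2.86 per kilobase and −6.08, −5.53 and −5.28 with the opsins and Arr3 over the rod list without Slc24a1, which changes both sides of the ratio. With single mice left out it was −4.45 to −3.97, −3.70 to −3.52 and −3.57 to −3.33. The correlation of Pde6c with the other cone genes turned to −0.43 without the 2 mice farthest on the other cone genes, and ran from −0.48 to 0.12 with single mice left out. That of Pde6c with the rod genes was 0.52 (0.37 to 0.59). That of the other cone genes with the rod genes was 0.67 (0.14 to 0.74), and 0.95 for the opsins and Arr3 with the rod list without Slc24a1. Of the genes most like Pde6c, 3 and 2 of 5 remained by Spearman's rho. Over all genes, DESeq2 called 171 between the mutant genotypes, against 99 by edgeR; without WT replicate 4, 1433 genes in FUN025/+ and 1519 in FUN025/FUN025 were called against WT. The cause of these shifts was not tested. Counts of 0 to 13 limit Cnga3, and counts of 3 to 20 limit Opn1mw outside WT replicate 2.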
